A study of Homo sapiens with 8 samples.

Results

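VEGF receptors and ligands were described here as a group of 7 genes, the receptors FLT1, KDR and FLT4 and the ligands VEGFA, VEGFB, VEGFC and PGF, out of 47591 entries in the gene table. The members were chosen by their symbols, and the family was selected on the difference of its genes between G2 and the control lines, so the G2 comparisons of the members are given as a description without a test. RNA-seq of polyadenylated RNA was performed in undifferentiated SH-SY5Y cells, a human neuroblastoma line, grown in high-glucose DMEM with serum. The G2 line (3 libraries) was made with CRISPR/Cas9 and a guide RNA directed at PRPF40B, a splicing factor, followed by puromycin selection and isolation of colonies by limiting dilution. The SCR line (3 libraries) received the CRISPR/Cas9 machinery with a scrambled guide, and the WT line (2 libraries) was not edited. G2 and SCR were kept in puromycin, which is not stated for WT, and 1 G2 line was sequenced, so the guide, the choice of colony and the selection cannot be told apart in G2/WT, nor the guide and the choice of colony in G2/SCR. The labels call the libraries of a line biological replicates, and the p-values measure the spread between these libraries.

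Vascular endothelial growth factors are secreted dimers that bind receptor tyrosine kinases. VEGFA binds FLT1 (VEGFR1) and KDR (VEGFR2), VEGFB and PGF bind FLT1, and VEGFC and VEGFD bind FLT4 (VEGFR3) and, once processed, KDR. KDR transmits most of the mitogenic signal in endothelium, whereas FLT1 has a weaker kinase, binds VEGFA tightly and is also made as a soluble form that captures ligand. The neuropilins NRP1 and NRP2 are co-receptors shared with the semaphorins, and VEGFA is a classical target of hypoxia-inducible factors.

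FLT1 was the member with the widest difference between the lines, while KDR, its partner receptor for VEGFA, was low in all of them. The 250 bases before the annotated start of each gene, where a core promoter lies, are shown for this contrasting pair as the RefSeq table for GRCh38.p14 gives them, 5′ to 3′ on the strand of the gene. The FLT1 window is chr13:28495129-28495378 and the KDR window chr4:55125596-55125845, both on the minus strand. Capitals mark the motifs searched.
FLT1: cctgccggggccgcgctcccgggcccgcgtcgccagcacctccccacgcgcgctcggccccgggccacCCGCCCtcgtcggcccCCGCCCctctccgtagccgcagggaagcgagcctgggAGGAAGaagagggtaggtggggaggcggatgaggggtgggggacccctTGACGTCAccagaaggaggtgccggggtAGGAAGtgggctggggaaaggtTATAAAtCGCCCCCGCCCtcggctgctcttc
KDR: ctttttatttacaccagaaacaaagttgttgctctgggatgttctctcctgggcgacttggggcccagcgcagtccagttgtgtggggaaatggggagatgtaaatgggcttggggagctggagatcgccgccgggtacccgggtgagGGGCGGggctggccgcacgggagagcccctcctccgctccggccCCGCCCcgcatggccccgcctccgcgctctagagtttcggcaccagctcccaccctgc
The motifs, searched on both strands, were a cAMP response element (CRE, TGACGTCA), a TATA box (TATAAA), a GC box (GGGCGG), an ETS site (AGGAAG), the core of a hypoxia response element (ACGTG) and an EGR1 site (GCGGGGGCG). The FLT1 window held the CRE 81 to 74 bases before the start, the TATA box 31 to 26 bases before it and ETS sites from 129 and 53 bases before it. It also held 3 GC boxes and an EGR1 site from 24 bases before the start, which overlaps the GC box nearest to the start. The KDR window held 2 GC boxes and none of the other motifs searched, and this contrast depends on which motifs were chosen. Among 35116 promoter windows of this length the CRE was found in 1.65%, the TATA box in 10.7%, the GC box in 42.6%, the ETS site in 28.7%, the hypoxia core in 18.5% and the EGR1 site in 4.72%, and 0.142% held both a CRE and a TATA box. These matches describe the letters only, and no binding was measured here. Of the 7 members, 5 matched the table, FLT1, KDR, VEGFB, VEGFC and PGF, with 2 windows for PGF, and all 6 windows held a GC box. Their GC content was 65.2% for KDR, 73.2% for FLT1, 74% for VEGFC, 82.8% for VEGFB and 70.8% and 80% for the PGF windows, against a median of 58% over all windows.

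The values are normalized counts, that is counts divided by a size factor for each library. The recovered totals were 59804395 to 81080747 counts per library, and a recovered count need not be 1 read. PRPF40B, the targeted gene, was at 840, 841 and 918 in G2, at 1686, 1672 and 1669 in SCR and at 1972 and 1668 in WT. All G2 libraries lay below all control libraries, and the log2 fold change was -0.95 ± 0.08 (SE) against SCR and -1.07 ± 0.09 against WT. The summed level of 10 markers of the neuroblastoma lineage was 262942 to 265895 in G2, 361049 to 369455 in SCR and 328878 to 342391 in WT. STMN2 was the most abundant of them, at a mean of 165517 in G2, 170244 in SCR and 116782 in WT. It differed by -0.04 (log2) in G2/SCR and by 0.50 in G2/WT, so the sum largely follows a gene that was not called. By the rule given next, 7 of the 10 were called lower in G2/SCR, beside 11.8% of all genes, and 7 in G2/WT, beside 12.2%. The log2 fold change was positive for 1 of the 10 in G2/SCR and for 2 in G2/WT, and 0 were called higher. A gene was called when its fold change was at least 1.5 and its unadjusted p at most 0.05 in limma, fitted over 18947 genes with a mean of at least 10. By this rule 26.9% of all genes tested were called in G2/SCR (15.1% higher, 11.8% lower), 29.9% in G2/WT (17.7% higher, 12.2% lower) and 16.3% in SCR/WT (10.7% higher, 5.63% lower). With all libraries scaled to the same total, the share of called genes that were higher moved from 59.3% to 75.8% in G2/WT and from 65.6% to 90.7% in SCR/WT.

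The receptors differed from each other in pattern. FLT1 (chr13:28300346-28495128, minus strand) was at 3915, 4130 and 4020 normalized counts in G2, at 13.3, 27.2 and 11.3 in SCR and at 14.9 and 4.96 in WT. The 3 G2 libraries lay far above every control library, while SCR and WT overlapped and were close to the limit of detection, the lowest WT library holding 5 recovered counts. Mean FLT1 was 233-fold higher in G2 than in SCR, and the ratio of single libraries ran from 144 to 364. Against WT the ratio of the means was 405, with single-library ratios from 263 to 832. On the log2(value + 1) scale the fold change was 7.88 ± 0.35 (SE) over SCR and 8.69 ± 0.39 over WT. The G2/WT value rests on the few counts of WT, and it was 9.40 without WT replicate 1 and 7.98 without WT replicate 2. Counts at the level of the gene add the membrane-bound and the soluble form of FLT1. In bulk RNA, more cells with FLT1 RNA and more FLT1 RNA per cell cannot be told apart.

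KDR (chr4:55078481-55125595, minus strand) was at 21.6, 15.3 and 7.52 in G2, at 35.7, 7.51 and 21.9 in SCR and at 3.72 and 12.9 in WT. The 3 lines overlapped, and no library held more than 35 recovered counts. On the log2 scale G2 differed by -0.39 ± 0.67 (SE) from SCR and by 0.85 ± 0.75 from WT, and both standard errors were wide. Without SCR replicate 1 the G2/SCR value changed sign, to 0.07.

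FLT4 (chr5:180601506-180649600, minus strand), best known as the receptor of lymphatic endothelium, was at 87.5, 137 and 120 in G2, at 53.1, 26.3 and 58.2 in SCR and at 34.8 and 32.8 in WT. All G2 libraries were above all control libraries, with a narrowest ratio of 1.504 between single libraries of G2 and SCR. This was a log2 fold change of 1.36 ± 0.30 (SE) over SCR and 1.71 ± 0.34 over WT. Thus both FLT1 and FLT4 were higher in G2, but FLT4 by 2.51-fold over the SCR mean and from a level that was measurable in every control library.

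**Figure D1:**
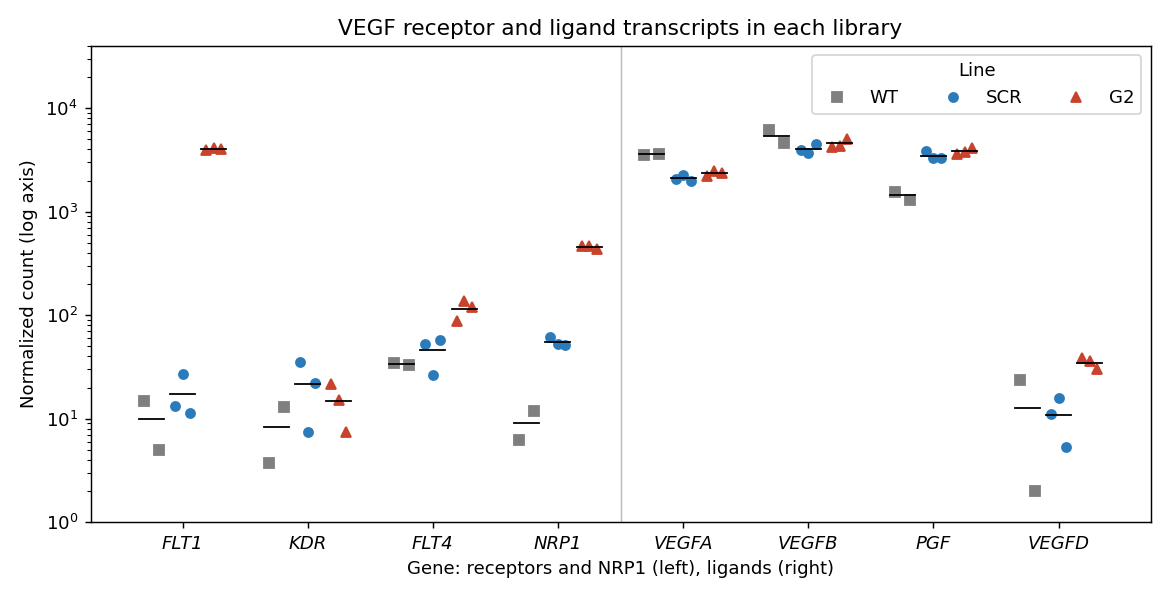
Normalized count of each receptor, NRP1 and each ligand in every library on a log axis, with squares for WT, circles for SCR, triangles for G2 and a bar at the mean of the line. VEGFC, listed at 0, is not drawn, and the G2 libraries of FLT1 lie between 3915 and 4130 while no control library exceeds 27.2.

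The ligands separated the lines in another way. VEGFA (chr6:43770209-43786487, plus strand) was at 2237, 2497 and 2352 in G2, at 2051, 2278 and 1977 in SCR and at 3562 and 3607 in WT. G2 and SCR overlapped, and both lay below both WT libraries. VEGFA had a log2 fold change of 0.17 ± 0.07 (SE) in G2/SCR, -0.60 ± 0.08 in G2/WT and -0.77 ± 0.08 in SCR/WT. The G2/WT value was near the fold threshold, and the call was lost with all libraries scaled to the same total, at -0.42, with the replicate block, at -0.58, and without G2 replicate 1, at -0.56.

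PGF (chr14:74941830-74955764, minus strand), placental growth factor, was at 3621, 3751 and 4166 in G2, at 3863, 3270 and 3338 in SCR and at 1563 and 1310 in WT. G2 and SCR overlapped again, but here both lay above WT. PGF had a log2 fold change of 0.14 ± 0.09 (SE) in G2/SCR, 1.42 ± 0.10 in G2/WT and 1.28 ± 0.10 in SCR/WT. PGF and VEGFA therefore differed between WT and both puromycin-selected lines, and in opposite directions.

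VEGFB (chr11:64234584-64239264, plus strand) was at 4253, 4362 and 5096 in G2, at 3910, 3726 and 4523 in SCR and at 6183 and 4610 in WT. The 3 SCR libraries lay just below both WT libraries, whereas G2 overlapped both control lines. The log2 fold change was 0.17 ± 0.11 (SE) in G2/SCR, -0.23 ± 0.12 in G2/WT and -0.40 ± 0.12 in SCR/WT. VEGFC (chr4:176683538-176792922, minus strand) was listed at 0 in every library. ORMDL1, OSGEPL1, TUBA4A and AHR were also listed at 0 in every library, as were 6504 named entries in all, so the value of VEGFC says only that it is listed at 0.

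In G2/SCR, 2 of the 6 members tested were called, FLT1 and FLT4, both higher, beside 26.9% of all genes. In G2/WT 4 of the 6 were called, FLT1, FLT4 and PGF higher and VEGFA lower, beside 29.9%. The libraries did not overlap for 2 of the 6 members in G2/SCR, where this held for 61.8% of all genes, and for 4 of the 6 in G2/WT, where it held for 65.4%. Since the family was selected on these comparisons, nothing is read from these shares. Both comparisons share the G2 libraries.

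**Figure D2:**
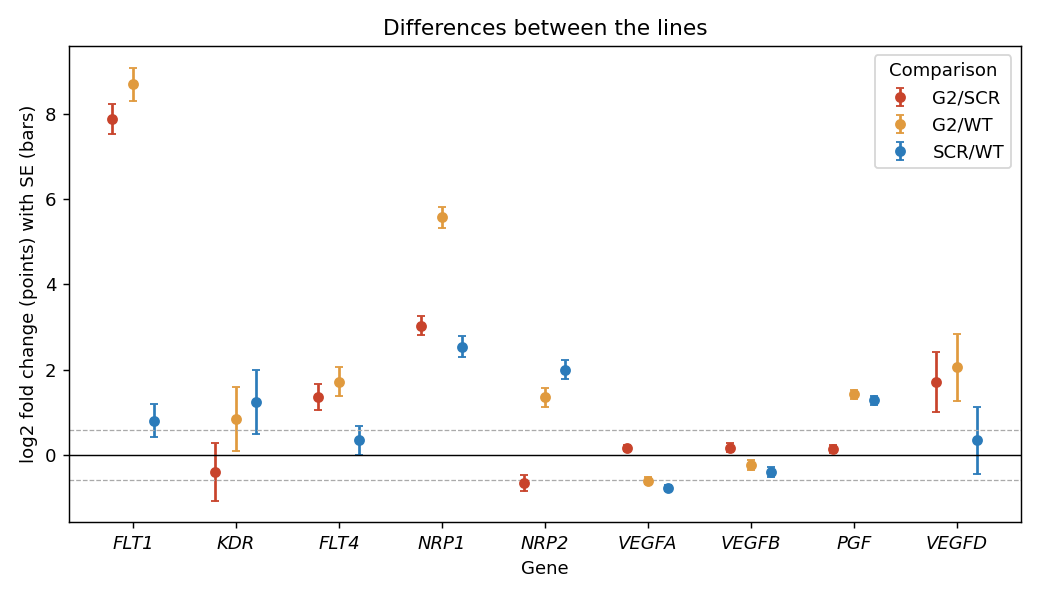
The log2 fold change of each member tested and of NRP1, NRP2 and VEGFD (points) with its standard error (bars) in G2/SCR, G2/WT and SCR/WT, with dashed lines at a fold change of 1.5. FLT1 stands at 7.88 and 8.69 in the G2 comparisons, and PGF and VEGFA lie near 0 in G2/SCR but apart from 0 in both comparisons with WT.

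The comparison of the control lines, SCR/WT, is not the contrast on which the members were chosen, and it was tested, although it uses the same SCR and WT libraries as the G2 comparisons and was known when the family was selected. It addresses how much the members differ between lines neither of which received the PRPF40B guide. PGF was 2.43-fold higher in SCR than in WT (adjusted p = 2.7e-06, limma) and VEGFA was 1.71-fold lower (adjusted p = 2e-05, limma), and both were called. With equal totals the call of VEGFA was lost, at -0.50. VEGFB differed by less than the fold threshold (adjusted p = 0.024, limma), and it was called, at -0.61, without WT replicate 2. FLT1 did not pass in SCR/WT, with a log2 fold change of 0.81 ± 0.39 (adjusted p = 0.13, limma), nor did KDR, with 1.25 ± 0.75 (adjusted p = 0.22, limma), or FLT4, with 0.35 ± 0.34 (adjusted p = 0.46, limma). These results of the receptors rest on few counts and on 2 WT libraries. FLT1 was called, at 1.52, without WT replicate 1, at 1.04 without SCR replicate 3 and at 1.06 with equal totals, KDR at 1.84 without SCR replicate 2 and at 2.03 without WT replicate 2, and FLT4 at 0.70 without SCR replicate 2. In all, 2 of the 6 members were called in SCR/WT beside 16.3% of all genes, and the libraries did not overlap for 3 of the 6, VEGFA, VEGFB and PGF, beside 55.3%.

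To compare levels between genes, the normalized counts were divided by the length of the annotated exons in kilobases. In WT the order of this level per kilobase was VEGFB at 2739 ± 565 (SD, n = 2), VEGFA at 248 ± 2.19, PGF at 247 ± 30.9, FLT4 at 3.81 ± 0.160, KDR at 1.31 ± 1.02 and FLT1 at 0.790 ± 0.559. VEGFA and PGF did not differ beyond their spread in this order, nor did KDR and FLT1. In SCR the order was VEGFB at 2057 ± 212 (SD, n = 3), PGF at 601 ± 55.9, VEGFA at 146 ± 10.9, FLT4 at 5.18 ± 1.94, KDR at 3.42 ± 2.22 and FLT1 at 1.37 ± 0.689. FLT4 and KDR overlapped there, as did KDR and FLT1, while every FLT4 library lay above every FLT1 library. In G2 it was VEGFB at 2320 ± 233 (SD, n = 3), PGF at 663 ± 49.1, FLT1 at 320 ± 8.56, VEGFA at 164 ± 9.03, FLT4 at 13.0 ± 2.84 and KDR at 2.34 ± 1.12. By its mean FLT1 thus stood last of the 6 genes in both control lines and, on these lengths, ahead of VEGFA in G2. The annotated exons of VEGFA add up to 14431 bases, beside a gene span of 16279, and its longest transcript has 12167. The place of VEGFA beside FLT1 and PGF, and the ligand shares, therefore depend on this annotation and are not settled here.

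The summed level per kilobase of the 3 receptors was 335 ± 10.9 (SD) in G2, 9.98 ± 3.29 in SCR and 5.92 ± 0.305 in WT. FLT1 made up 95.4% ± 0.547 of it in G2, 16.9% ± 15.0 in SCR and 13.6% ± 10.1 in WT, while FLT4 made up 3.86% ± 0.732 in G2, 51.5% ± 7.51 in SCR and 64.6% ± 6.04 in WT. The share of KDR was 0.701% ± 0.348 in G2 and 31.6% ± 12.8 in SCR, although its own level did not separate these lines. The summed level of the ligands, VEGFD included, was 3162 ± 280 in G2, 2809 ± 196 in SCR and 3241 ± 601 in WT, and did not separate the lines. Within it VEGFB made up 73.3% ± 0.884 in G2, 73.1% ± 2.78 in SCR and 84.4% ± 1.80 in WT, and PGF 21.0% ± 0.308, 21.5% ± 2.34 and 7.68% ± 0.469. The shares of VEGFB and PGF overlapped between G2 and SCR, and the WT libraries lay apart. VEGFD made up 0.512% ± 0.104 in G2 and 0.181% ± 0.0992 in SCR, without overlap. With the length of the longest transcript in place of all exons, the share of PGF among the ligands was 28.3% in G2, 28.9% in SCR and 11.01% in WT.

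**Figure D3:**
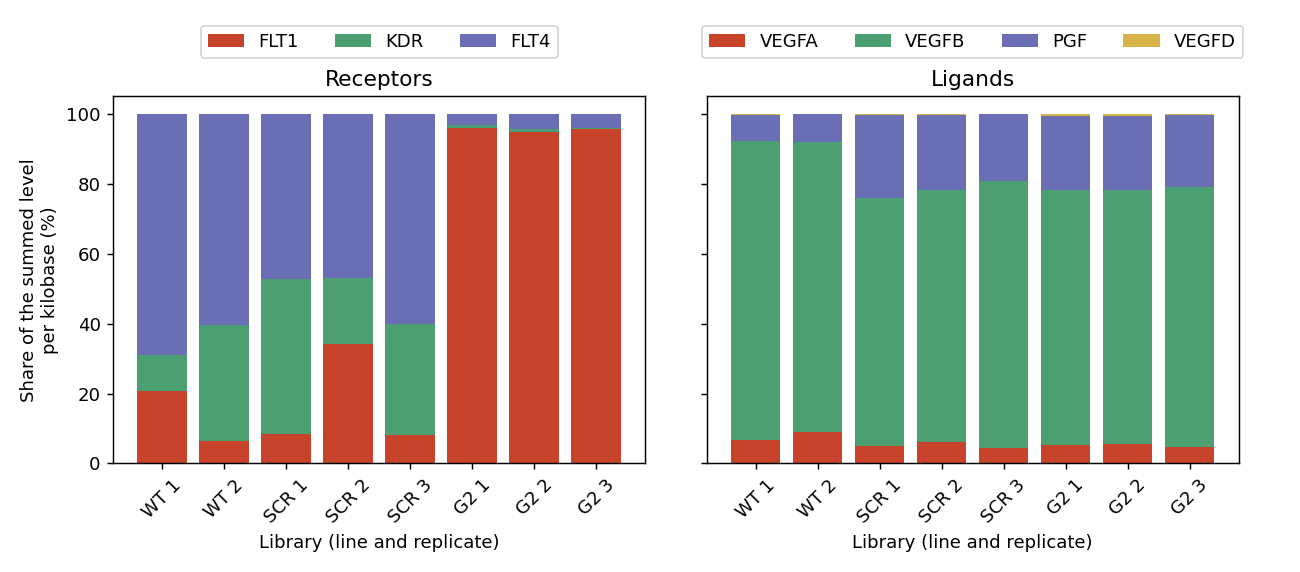
Share of each receptor (left) and each ligand (right) in the summed level per kilobase of its kind, in percent, with 1 stacked bar per library. FLT1 fills 94.8% to 95.9% of the receptor bar in the G2 libraries, and PGF takes 7.35% and 8.01% of the ligand bar in WT against 19.1% or more in SCR and G2.

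The co-receptors differed from both of these patterns. NRP1, which binds VEGFA and semaphorins, was at 470, 466 and 438 in G2, at 62.3, 52.6 and 51.4 in SCR and at 6.21 and 11.9 in WT. The 3 lines did not overlap anywhere, and NRP1 passed in all comparisons. Its log2 fold change was 3.03 ± 0.23 (SE) in G2/SCR, 5.57 ± 0.25 in G2/WT and 2.54 ± 0.25 in SCR/WT (adjusted p = 1.9e-05, limma, for the last). The WT libraries held 5 and 12 recovered counts of NRP1, so both comparisons with WT rest on few counts. Leaving out a library gave 5.15 to 5.99 in G2/WT and 2.12 to 2.96 in SCR/WT. NRP2 was at 88.4, 78.8 and 104 in G2, at 119, 149 and 160 in SCR and at 33.5 and 35.7 in WT, so that it was highest in SCR. On the log2 scale NRP2 differed by -0.65 ± 0.19 in G2/SCR, 1.35 ± 0.21 in G2/WT and 2.00 ± 0.21 in SCR/WT. The call in G2/SCR was lost without G2 replicate 2, at -0.56, and without SCR replicate 3, at -0.56. VEGFD, a further ligand of FLT4, was at 38.6, 36.1 and 30.1 in G2, at 11.2, 16.0 and 5.29 in SCR and at 23.6 and 1.99 in WT. All G2 libraries lay above all controls, but the WT libraries were far from each other, and the log2 fold change of 1.71 ± 0.70 in G2/SCR had an adjusted p of 0.062 (limma), and its call was lost when any single G2 library was left out.

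Genes of the pathway were taken from lists of co-receptors and modulators, ligand processing, signal transduction, transcription factors that act on VEGF receptor genes, and hypoxia-responsive genes. The first list includes NRP1, NRP2 and the ligand VEGFD, which were described above. These lists and those of cell type markers were chosen with earlier results of these data known. Nothing is therefore read from their shares of called genes. The genes named from the pathway lists were picked by their p in G2/SCR, so their p-values in that comparison are a description. Of 11 co-receptors and modulators tested, 5 were called higher and 2 lower in G2/SCR (63.6%, beside 26.9% of all genes), 7 higher and 2 lower against WT (81.8%, beside 29.9%), and 3 and 1 in SCR/WT (36.4%, beside 16.3%). VEGFD is among the 5 called higher in G2/SCR, at an adjusted p of 0.062 (limma). The list's median on the log2 scale was 0.38 in G2/SCR, beside -0.013 over all genes, 1.33 in G2/WT, beside 0.0049, and 0.35 in SCR/WT, beside 0.0099. The SCR/WT median is the value of VEGFD itself, which changed sign without WT replicate 2. EFNB2, ephrin-B2, a membrane ligand that controls the uptake of VEGF receptors, was lower in G2 (3506 ± 138, SD, n = 3) than in SCR (8411 ± 265), with an adjusted p of 3.1e-09 (limma). PTPRJ, a receptor phosphatase that acts on KDR, was higher in G2 than in SCR, where it stood at 133 ± 14.4, with a log2 fold change of 0.91 ± 0.14 (SE, adjusted p = 2e-04, limma). SH2D2A, an adaptor that couples KDR to SRC, rose from 17.6 ± 7.94 to 89.8 ± 16.5 (adjusted p = 0.00022, limma).

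Of 6 genes of ligand processing and binding tested, 4 were called higher in G2/SCR and 0 lower (66.7%, beside 26.9% of all genes), and the median change was 0.97 on the log2 scale. In G2/WT 3 were called higher and 1 lower (66.7%, beside 29.9%), and in SCR/WT 1 and 1 (33.3%, beside 16.3%). FURIN, a convertase that cleaves the precursors of VEGFC and VEGFD, was at 3082 ± 130 (SD, n = 3) in G2 and 1421 ± 68.7 in SCR (adjusted p = 5.4e-08, limma). ADAMTS3, the protease that activates VEGFC, was at 2055 ± 115 in G2, 336 ± 24.5 in SCR and 165 ± 66.1 in WT (adjusted p = 9.2e-08 in G2/SCR, limma). VEGFC itself was listed at 0 in the same libraries. ADAMTS1, which can bind VEGFA, was at 3658 ± 13.3 in G2 and 2071 ± 135 in SCR (adjusted p = 3.7e-07, limma). MMP9, a protease that frees VEGFA from the matrix, was at 11.3, 16.4 and 48.4 in G2, but no SCR library exceeded 8.45 and a WT library was at 26.8, so its call in G2/SCR rests on very few counts.

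Of 36 signal transduction genes tested, 4 were called higher and 3 lower in G2/SCR, or 19.4%, 5 and 4 against WT (25%, beside 29.9% of all genes), and 1 and 3 in SCR/WT (11.1%, beside 16.3%). The share of 19.4% stood beside 26.9% of all genes in G2/SCR, and the list's median log2 value was 0.25. SPHK1, sphingosine kinase, was at 490 ± 44.7 (SD, n = 3) in G2, 27.7 ± 6.33 in SCR and 52.4 ± 7.36 in WT (log2 fold change 4.12 ± 0.20, SE, in G2/SCR, adjusted p = 8.7e-09, limma). PXN, the focal adhesion protein paxillin, rose from 504 ± 62.6 in SCR to 1279 ± 82.9 in G2 (adjusted p = 3.8e-07, limma), and MAPKAPK2, a kinase downstream of p38, from 4378 ± 83.7 to 6965 ± 53.2 (adjusted p = 4.1e-07, limma). SRC, a tyrosine kinase recruited by KDR, fell from 3777 ± 290 in SCR to 2123 ± 33.1 in G2 (adjusted p = 6.7e-07, limma). PLCG1, the phospholipase that KDR activates, was at 7328 ± 190 in G2 and 7187 ± 197 in SCR and was named after its values were seen.

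Of 16 transcription factors tested, 10 were called higher and 4 lower in G2/SCR (87.5%, beside 26.9% of all genes), 10 and 3 in G2/WT (81.2%, beside 29.9%), and 2 and 0 in SCR/WT (12.5%, beside 16.3%). The list's median in G2/SCR was 0.65 (log2). EGR1, an immediate-early zinc finger factor, was at 4743 ± 77.1 (SD, n = 3) in G2, 730 ± 36.5 in SCR and 493 ± 65.1 in WT (6.5-fold higher in G2 than in SCR, adjusted p = 1.4e-10, limma). ETS1, the founding member of the ETS family, was at 746 ± 70.1 in G2, 244 ± 28.8 in SCR and 246 ± 42.4 in WT (adjusted p = 6.8e-07 in G2/SCR, limma). GATA2 fell from 22607 ± 1150 in SCR to 12949 ± 626 in G2 (adjusted p = 2e-07, limma). EPAS1, which encodes HIF-2α, was at 1321 ± 36.9 in G2, 5024 ± 282 in SCR and 1591 ± 123 in WT, so that SCR stood apart from both other lines (log2 fold change 1.66 ± 0.08, SE, in SCR/WT, adjusted p = 4.9e-08, limma).

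Of 15 hypoxia-responsive genes tested, 2 were called higher and 3 lower in G2/SCR (33.3%, beside 26.9% of all genes), 2 and 3 against WT (33.3%, beside 29.9%), and 1 and 1 in SCR/WT (13.3%, beside 16.3%), and the list's median in G2/SCR was -0.21 (log2). P4HA1, a subunit of collagen prolyl hydroxylase, rose from 778 ± 52.6 in SCR to 2416 ± 70.7 in G2 (adjusted p = 3.6e-09, limma), and BHLHE40, a transcriptional repressor, from 29.8 ± 19.8 to 242 ± 49.2 (adjusted p = 2.1e-05, limma). SLC2A1, the glucose transporter GLUT1, fell from 3866 ± 240 to 2107 ± 16.3 (adjusted p = 1.7e-07, limma), and ADM, the vasoactive peptide adrenomedullin, from 582 ± 57.5 to 199 ± 40.0 (adjusted p = 2.6e-06, limma). VEGFA, which is itself induced by hypoxia, was not called in G2/SCR.

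**Figure D4:**
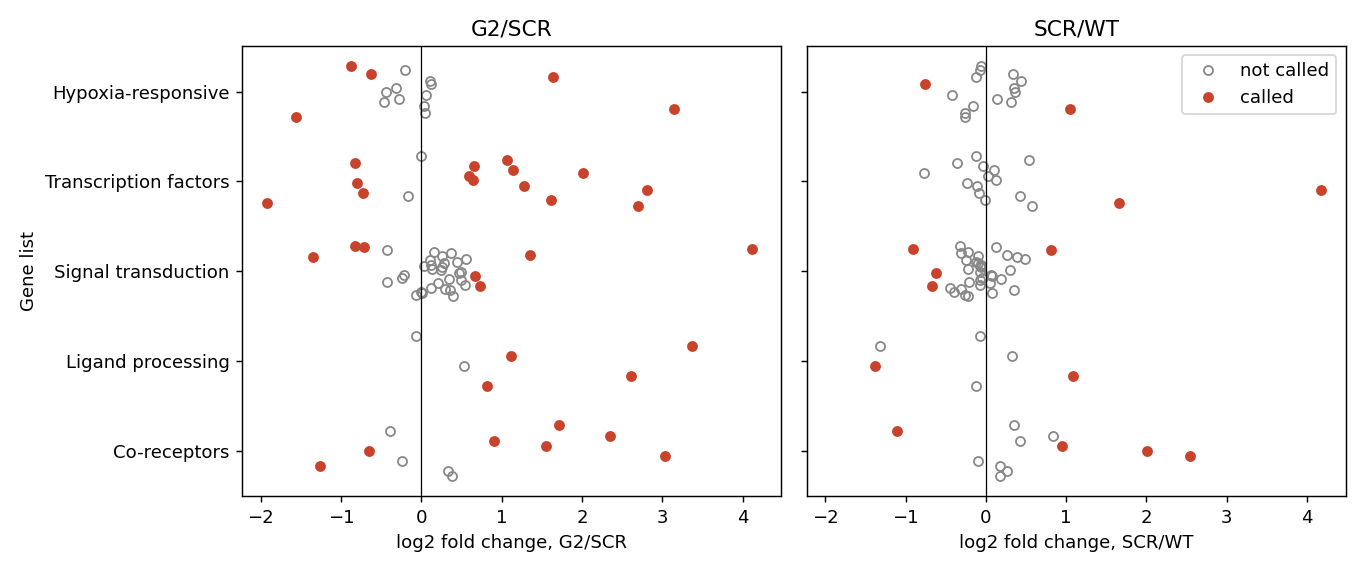
The log2 fold change of every tested gene of the 5 pathway lists in G2/SCR (left) and SCR/WT (right), with filled points for called genes and open points for the others. In G2/SCR 14 of the 16 transcription factors are called, against 2 in SCR/WT, and 7 of the 36 signal transduction genes, against 4. The rightmost point in SCR/WT is FLI1, an ETS factor listed at 0 in both WT libraries. The lists were chosen with earlier results of these data known.

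FLT1 and KDR are best known from endothelium, and FLT1 also from monocytes and mural cells, so markers of these cells were measured beside them. Of 12 endothelial markers PECAM1 was listed at 0 in every library, and 4 reached a mean of 10. Of these, 3 were called higher in G2/SCR (75%, beside 26.9% of all genes) and 2 in G2/WT (50%, beside 29.9%). At an adjusted p of at most 0.05 (limma), 1 of the 3 remained in G2/SCR. The summed level of the list was 2286 to 2712 in G2, 1353 to 1489 in SCR and 1761 to 2149 in WT and EGFL7 made up most of it, with a mean of 2272 in G2, 1328 in SCR and 1885 in WT. Of 8 monocyte and macrophage markers AIF1 and TYROBP were listed at 0 in every library and 3 were tested. Of these, 2 were called higher in G2/SCR (66.7%, beside 26.9% of all genes) and 1 in G2/WT (33.3%, beside 29.9%). The summed level of this list was 806 to 875 in G2, 133 to 150.0 in SCR and 210.5 to 215 in WT. In G2 most of it came from CD68, a lysosomal protein, at a mean of 703. CD14 went the other way and was not called, at -0.63 ± 0.35 (log2, SE) in G2/SCR and -0.58 ± 0.39 in G2/WT. FCER1G had a mean of 87.2 in G2, 27.8 in SCR and 77.1 in WT, so it was not called in G2/WT. Of 8 mural cell markers, none was listed at 0 in every library. In G2/SCR 4 were called higher and 2 lower (75%, beside 26.9% of all genes), and in G2/WT also 4 and 2 (75%, beside 29.9%). The summed level of these 8 was 778991 to 819931 in G2, 447356 to 493397 in SCR and 469809 to 491340 in WT, nearly all of it from RGS5, a regulator of G-protein signalling. The part of these cells in the FLT1 result was not tested.

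The measured genes next to FLT1 on chromosome 13 were set beside it. Of the 10 tested neighbours, 5 on each side, 2 were called in G2/SCR, beside 26.9% of all genes, and 3 in G2/WT, beside 29.9%. Nothing is read from these counts. The 2 called in G2/SCR were higher in G2 and lie on the higher-coordinate side. They were SLC46A3, a lysosomal transporter, with a log2 fold change of 0.72, and MTUS2, a microtubule-associated protein, with 2.13. MTUS2 was low, with a mean of 45.4 in G2, 9.59 in SCR and 3.10 in WT, so its fitted values depend on the pseudocount. Both genes were also called higher in SCR/WT, SLC46A3 at 1.60. PAN3, the nearest neighbour on the other side, was at 0.37 in G2/SCR, POMP at 0.20 and SLC7A1 at 0.06, and none of these was called. MTIF3, LNX2, POLR1D and UBL3 ranged from -0.36 to 0.33 in G2/SCR and were not called, and PAN3-AS1, at 0.02, was called higher in both comparisons with WT. PAN3-AS1 overlaps the start of PAN3, and without the strand setting their reads cannot be told apart. No neighbour came near the 7.88 of FLT1.

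**Figure D5:**
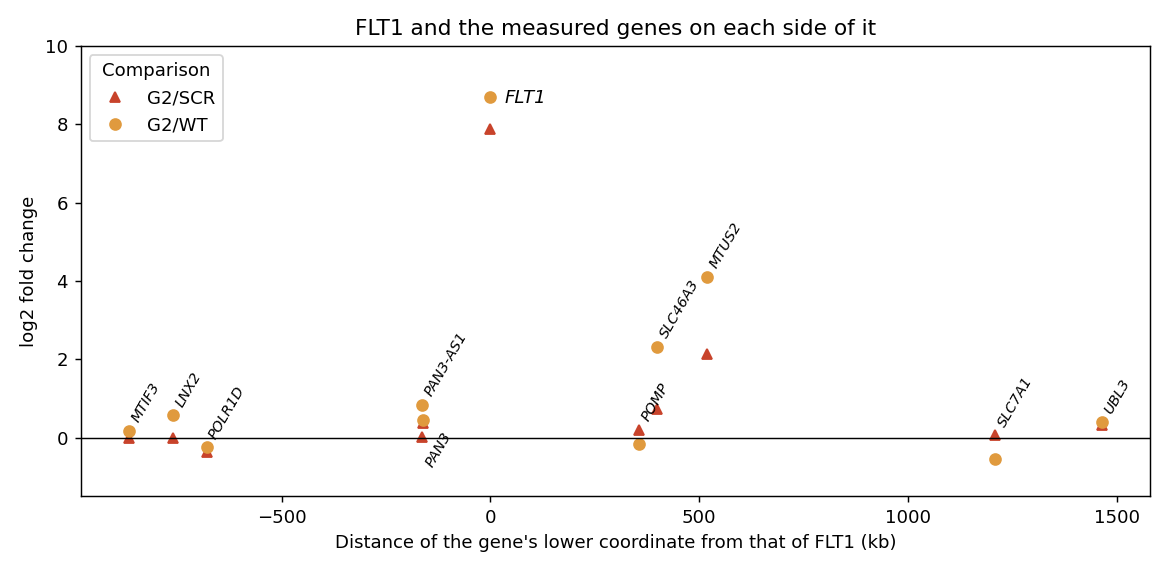
The log2 fold change of FLT1 and of 10 measured genes beside it in G2/SCR (triangles) and G2/WT (circles), against the distance of each gene's lower coordinate from that of FLT1 in kilobases. FLT1 stands at 7.88 and 8.69, and the next highest values, those of MTUS2, are 2.13 and 4.10, the latter fitted against a WT mean of 3.10.

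Genes whose log2 level ran most like each member over the 8 libraries were sought among the 13065 genes whose mean reached 100, without the member itself. Only genes with a symbol are given as most alike, while the numbers reaching an r of 0.99 include entries without one. These correlations are a description, since the libraries of a line share their history, and a gene that only steps between lines correlates highly. FLT1 ran most like TBX18, a T-box transcription factor (r = 0.998, n = 8), followed by LMAN2L, TTL, ASTN2 and DKK1, a Wnt antagonist, and 115 genes reached an r of 0.99. TBX18 had a mean of 364 ± 30.1 (SD) in G2, 5.44 ± 2.61 in SCR and 3.97 ± 1.41 in WT, whereas DKK1 was already at 65769 in SCR and reached 134564 in G2. PGF ran most like KCTD13 (r = 0.997), JDP2, FOXD1, RNF149 and HSPA1B, and only 5 genes reached an r of 0.99 with it. FOXD1, a forkhead factor, was at 616 ± 59.5 in G2, 489 ± 34.2 in SCR and 122 ± 20.8 in WT, so that WT was the lowest line, as in PGF, with a wider difference. VEGFA ran most like CHEK1 (r = 0.987), the checkpoint kinase, then HNRNPU, ACOT2, HSPA9 and SEPTIN9. VEGFB ran most like SLC25A29 (r = 0.959), RAB24, NUDT16L1, SLC25A22 and CDK10, and FLT4 most like TNFAIP2 (r = 0.984), XYLT2, PAOX, PPP1R3C and TRPM4. For KDR the highest r of a gene with a symbol was 0.909, with TPTEP2, followed by B3GNTL1, TCAP, FAM166C and VPS13D, at KDR counts too low to read.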

How the data were processed

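The authors mapped the paired reads of stranded polyadenylated libraries to hg38 with STAR 2.7.5a, counted them per FAST DB gene with featureCounts (Subread 1.5.0) and divided the counts by DESeq2 size factors. The deposited signal is this normalized count per gene and library, not scaled to length. The strand setting of the counting is not given in the sources used here. Values were whole multiples of a step in each library, and whole counts were recovered for 100% of values within 0.01, except that the step of WT replicate 2 (0.993) lies too near 1 for a check. Small counts were mostly multiples of 3, so 9 recovered counts were taken as the floor.

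limma 3.58.1 in R 4.3.3 was fitted to log2(value + 1) of 18947 genes (mean of at least 10), with 1 mean per line and a trend, and the pseudocount pulls ratios of low values toward 1. Adjusted p-values are Benjamini-Hochberg values over these genes. The test was checked on simulated data. For G2/SCR the recovered counts were also tested with DESeq2 1.42.0 and edgeR 4.0.16, which took each as 1 read. The members and the gene lists were chosen with earlier results of these data known. Genes named are the members, PRPF40B, NRP1, NRP2, VEGFD and, in each pathway list, the 4 genes of lowest p in G2/SCR. In each list of other cell types they are the most abundant gene and those at 0. Also named are the 5 genes with a symbol most like each member and up to 5 neighbours of FLT1 on each side. PLCG1, FLI1, CD14, FCER1G, STMN2 and the abundant genes listed at 0 were added after their values were seen. Levels per kilobase used the union of GENCODE 44 exons, on the same build. Libraries were assigned to lines by their labels. Leaving out each library, other pseudocounts, filters and thresholds, equal totals and a block by the replicate number of the titles were tried.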

Additional observations from a re-analysis of the deposited data

How the results depend on the processing

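The pseudocount (0.5 or 5), no filter, no trend, a fit of only the lines compared, and DESeq2 or edgeR in G2/SCR kept the calls of every member. FLT1 and FLT4 remained called in G2/SCR under every alternative that tested them. This describes the processing only and is no test, since the family was selected on the G2 comparisons. The filter at a mean of 100 left 3088 genes called in G2/SCR, with 1 member because FLT4 was no longer tested, 3633 in G2/WT and 1723 in SCR/WT. A fold of at least 2 left 2951, 3176 and 1491 genes, 22, 26 and 8 pathway genes, and 1 member in SCR/WT, PGF. With all libraries scaled to the same total, 24 pathway genes were called in SCR/WT, and the median over all genes moved to -0.104 in G2/SCR, 0.19 in G2/WT and 0.286 in SCR/WT; relative to it VEGFA was at -0.61 in G2/WT and -0.78 in SCR/WT, and PGF at 1.42 and 1.27. Leaving out a library gave 4795 to 5212, 5088 to 6159 and 2855 to 3542 called genes, 2, 3 to 4 and 2 to 4 called members, and 31 to 37, 35 to 40 and 13 to 15 pathway genes in G2/SCR, G2/WT and SCR/WT. The values that changed sign were KDR in G2/SCR, which ranged from -0.98 to 0.070 and turned without SCR replicate 1, and VEGFD in SCR/WT, which ranged from -1.17 to 1.87 and turned without WT replicate 2. The call of VEGFD in G2/SCR was lost at an adjusted p of at most 0.05, without a trend and when any G2 library, SCR replicate 1 or SCR replicate 3 was left out, and in G2/WT without WT replicate 2, at 0.54, or G2 replicate 1, at 1.99, and without a trend. Per kilobase of the longest transcript, FLT1 made up 96.2% of the receptors in G2, VEGFB 66.1%, 65.8% and 80.7% of the ligands in G2, SCR and WT, and PGF 28.3%, 28.9% and 11.01%. Libraries with the same replicate number in their titles did not deviate together (r from -0.032 to 0.042). The library names carry other numbers, and pairing by those was not tested as such. The replicate block used the title numbers. With the replicate block 5059, 5644 and 3057 genes were called, with 2, 3 and 3 members, FLT1 passing in SCR/WT at 0.93. Causes were not tested.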
